A study of Mus musculus with 22 samples.

Results

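Lysyl oxidases and the enzymes that trim procollagen were followed in skin fibroblasts of mice with or without a tissue expander. The set holds 10 genes of the 55414 in the count table, picked by symbol for their role: the 5 lysyl oxidases Lox, Loxl1, Loxl2, Loxl3 and Loxl4, the C-propeptidase Bmp1, its enhancers Pcolce and Pcolce2, and the N-propeptidases Adamts2 and Adamts14. The 10 genes were chosen with earlier results of these data known, so counts of them beside all genes are descriptions. All mice had surgery on the back skin. In EXP mice a hydrogel that swells was placed under the skin near the neck, and CTRL mice had the same incision and no expander. Skin was taken on day 1 (4 CTRL and 5 EXP libraries), day 2 (3 and 3) and day 4 (4 and 3), and RNA was sequenced in bulk from sorted fibroblasts. The sort kept live cells with CD34 and PDGFRα on their surface and removed cells with CD31, CD45, CD117 or EpCAM. Strain, age and sex were not given in the sources used here, and the labels number the libraries of a group without tying them to animals, so that the p-values measure only the spread between these libraries.

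Fibrillar collagens leave the fibroblast as procollagen with a propeptide at each end. BMP1 cuts off the C-propeptide, a step that the secreted proteins PCOLCE and PCOLCE2 speed up, and ADAMTS2 and ADAMTS14 cut off the N-propeptide, after which the molecules assemble into fibrils. Lysyl oxidases are secreted copper enzymes that oxidise lysines in collagen and elastin, and the aldehydes so formed make the cross-links that give skin its strength. BMP1 also cuts pro-LOX to its active form, so the 2 groups of enzymes are linked.

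The members include paralog pairs whose levels are set side by side later, and the promoters of these pairs are shown first. RefSeq's promoter table (GRCm38.p6, 250 bases before to 50 after a gene's start) held 5 of the 10 members: Loxl4, Pcolce, Pcolce2, Adamts2 and Adamts14. The letters below are the bases before the gene's own first annotated exon, 5′ to 3′ on the gene's strand. Capitals mark GC boxes, GGGCGG on either strand.
Pcolce: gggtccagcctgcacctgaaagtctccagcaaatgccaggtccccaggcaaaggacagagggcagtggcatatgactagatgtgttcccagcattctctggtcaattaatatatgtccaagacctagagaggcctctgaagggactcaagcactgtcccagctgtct
Pcolce2: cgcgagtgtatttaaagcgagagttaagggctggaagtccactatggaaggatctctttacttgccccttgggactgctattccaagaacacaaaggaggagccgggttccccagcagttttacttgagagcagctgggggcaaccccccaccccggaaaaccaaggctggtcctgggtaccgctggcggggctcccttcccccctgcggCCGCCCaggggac
Adamts2: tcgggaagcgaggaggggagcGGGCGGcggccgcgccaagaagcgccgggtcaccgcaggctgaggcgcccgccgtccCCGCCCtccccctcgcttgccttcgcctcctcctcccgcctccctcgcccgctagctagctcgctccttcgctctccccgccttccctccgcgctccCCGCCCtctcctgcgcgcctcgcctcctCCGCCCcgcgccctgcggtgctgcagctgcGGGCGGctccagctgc
Adamts14: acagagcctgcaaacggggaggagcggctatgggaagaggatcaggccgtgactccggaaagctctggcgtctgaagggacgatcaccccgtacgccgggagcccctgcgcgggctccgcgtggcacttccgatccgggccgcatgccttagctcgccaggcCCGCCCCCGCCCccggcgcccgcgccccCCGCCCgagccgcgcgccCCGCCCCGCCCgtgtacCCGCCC
They lie at chr5:137611488-137611654 (minus strand) for Pcolce, chr9:95637378-95637600 (plus strand) for Pcolce2, chr11:50601835-50602083 (plus strand) for Adamts2 and chr10:61273439-61273669 (minus strand) for Adamts14. These motifs were looked for on both strands in the 250 bases before the start: the GC box GGGCGG, the CCAAT box CCAAT, the TATA box TATAAA, the AP-1 site TGANTCA, the TEAD site CATTCC, the hypoxia response core ACGTG and the SMAD palindrome GTCTAGAC. Only the GC box was found. Adamts14 held 6 matches, of which a pair overlaps by 1 base, Adamts2 held 5, and Pcolce2 and Pcolce held 1 each, the last in bases of an exon that are not printed. GC boxes occurred in 32.7% of the 32851 promoters in the table. The guanine and cytosine content of the 250 bases was 78.0% in Adamts2, 76.4% in Adamts14, 61.2% in Pcolce2 and 58.8% in Pcolce, against a median of 52.4% over all promoters. The pairs are thus unlike in base composition: both N-propeptidases have GC-rich promoters, and the enhancers do not reach that level.

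The libraries held 21461294 to 30210204 counts, and levels are given as CPM, the count of a gene relative to the total of its library. Pdgfra (227 to 1023 CPM) and Cd34 (217 to 2348 CPM) were present in every library, and the genes of the antigens that were sorted out stayed at or below 3.68 CPM (Pecam1), 0.243 CPM (Ptprc), 0.699 CPM (Kit) and 2.09 CPM (Epcam). Of 6 fibroblast markers (Pdgfra, Cd34, Dcn, Lum, Dpt and Col1a1), 1 rose and 2 fell on day 1, and 1 rose and 3 fell on each of days 2 and 4. Pdgfra rose on each day (0.84, 1.71 and 0.79, edgeR adjusted p = 0.0154, 0.00134 and 0.0456), and Cd34 fell on days 1 and 2 (-1.74 and -2.07, adjusted p = 0.00081 and 0.00379) and had a day 4 value of -0.93 (adjusted p = 0.0948). The summed level of these markers, collagen message included, was lower in EXP without overlap on each day, at 46159 to 65896 CPM against 86465 to 110092 in CTRL on day 1, 29981 to 72437 against 140250.2 to 160561 on day 2, and 26611 to 102334 against 113485 to 150283 on day 4. Summed markers of some other cells differed between the arms too. On day 2 melanocyte markers summed to 15.3 to 37.0 CPM in EXP against 5.39 to 13.5 in CTRL, and 0 of 2 tested passed. Skeletal muscle markers then summed to 1.29 to 1.65 CPM in EXP and 1.74 to 3.19 in CTRL, and 1 of 4 tested fell. On day 1 adipocyte markers overlapped, at 0.84 to 9.65 CPM in EXP against 1.86 to 24.9 in CTRL, and 0 of 6 passed. For adipocytes, the summed level of 6 markers was 0.54 to 2.23 CPM in day 4 CTRL libraries and 43.7 to 507 CPM in day 4 EXP libraries, and 0.25 to 3.13 against 8.03 to 89.1 CPM on day 2. The sum of 6 markers of pericytes and smooth muscle was lower in EXP without overlap on each day, at 15.5 to 28.7 CPM against 31.5 to 58.9 in CTRL on day 1, 17.9 to 36.8 against 54.8 to 62.1 on day 2, and 15.1 to 38.2 against 38.4 to 71.7 on day 4. Leukocyte markers summed to 65.95 to 95.8 CPM in EXP against 114 to 165 in CTRL on day 2, and endothelial markers to 4.88 to 10.6 CPM in EXP against 0.63 to 4.11 in CTRL on day 4. The lower leukocyte sum was not shared by the single markers. Of 6 tested, 2 rose and 0 fell on day 2, with a median log2 fold change of 0.37. Of the 8 leukocyte markers, 4 in EXP and 5 in CTRL had a day 2 mean under 1 CPM. Of the 6 markers of pericytes and smooth muscle, 1 fell and 0 rose on each of days 1 and 2. On day 4, 0 of these 6 passed. Their median log2 fold changes were -1.09, -0.96 and -0.37 on the 3 days. Of 5 endothelial markers tested, 1 rose and 0 fell on day 4, with a median of 1.56. The part of these marker shifts in the results below was not tested. The share of counts taken by Col1a1, Col1a2 and Col3a1 differed as well, with 19.8 to 24.5% in CTRL against 9.97 to 15.8% in EXP on day 1, 26.9 to 30.7% against 6.95 to 16.1% on day 2, and 20.6 to 27.9% against 9.78 to 24.2% on day 4. A group of 192 genes that vary together with Rnf10 set 7 libraries apart, namely day 1 CTRL 1, 2 and 3, day 1 EXP 1 and 2, and day 4 CTRL 3 and 4. Where the call of a member on day 1 or 4 was lost within 1 side of this division, the value there is given below. The other calls of these days held there. CPM values are scaled by the trimmed mean of M-values (TMM), and a gene passed the test where edgeR's quasi-likelihood test gave a Benjamini-Hochberg adjusted p under 0.05 over 17554 genes. Scaling by library totals alone raised the median log2 difference of all genes to 0.21, 0.49 and 0.36 on days 1, 2 and 4, from 0.02, 0.02 and 0.03. The share of higher genes among those called was then 66.2% in place of 48.7% on day 1, 90.5% in place of 57.5% on day 2 and 80.8% in place of 57.0% on day 4.

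Between arms, 4 members passed on day 1, 4 on day 2 and 6 on day 4. On day 1, 4 of the 10 genes fell in EXP (Loxl2, Pcolce, Pcolce2 and Adamts14) and 0 rose, where 28.6% of all genes tested passed. All genes split into 13.9% higher and 14.7% lower on that day. On day 2, Loxl1 and Loxl3 rose while Loxl2 and Pcolce2 fell, where 13.4% of all genes passed (7.72% higher and 5.71% lower). On day 4, Lox, Loxl1 and Loxl3 rose while Loxl4, Pcolce2 and Adamts2 fell, where 22.5% passed (12.8% higher and 9.66% lower). The median log2 fold change of the 10 genes was -0.27, -0.79 and 0.24 on the 3 days, against 0.02, 0.02 and 0.03 over all genes tested. The EXP and CTRL libraries did not overlap for 4 members on day 1, all 10 on day 2 and 5 on day 4, beside 23.9%, 39.3% and 25.5% of all genes. Without TMM the same members passed on days 1 and 4 except Adamts2 on day 4 (-0.96, edgeR adjusted p = 0.0560).

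**Figure D1:**
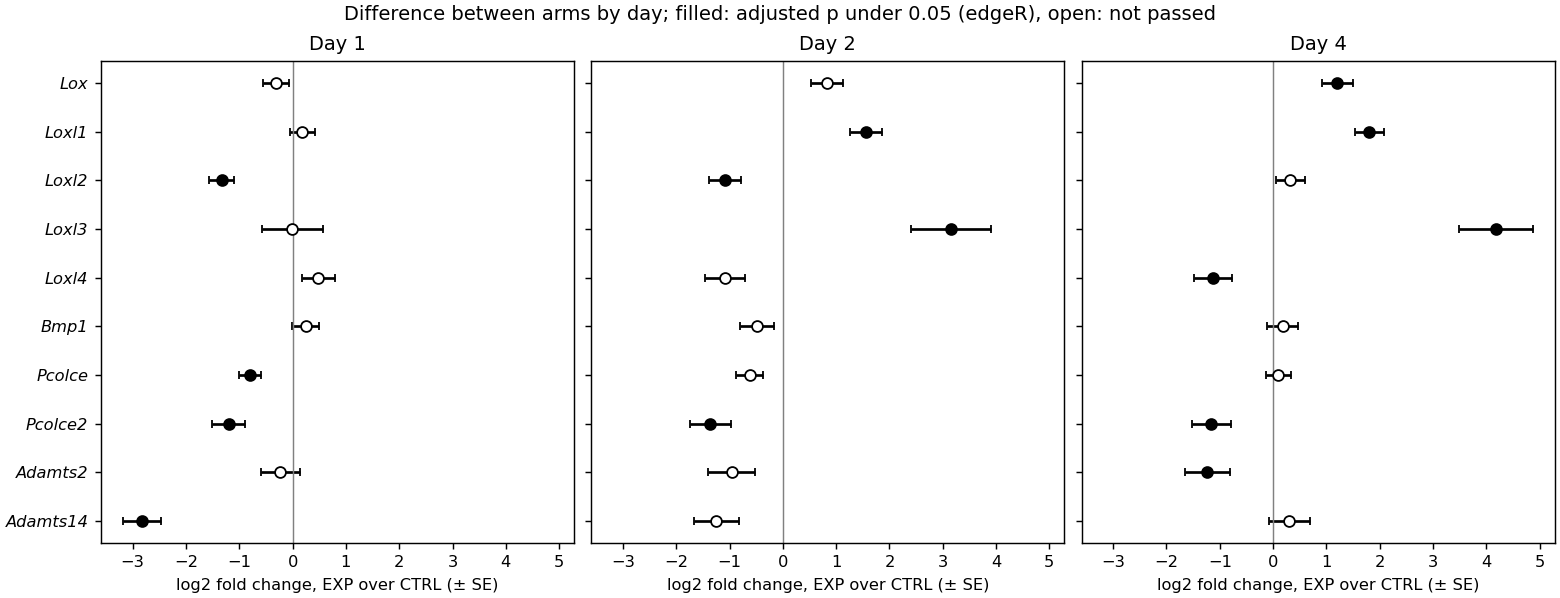
Log2 fold change of EXP over CTRL for each gene (points) with its standard error (bars) on days 1, 2 and 4; filled points passed edgeR's test. Adamts14 on day 1 lies farthest to the left at -2.83, and Loxl3 lies farthest to the right on day 2 (3.15) and day 4 (4.18).

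Per kilobase of exon, Pcolce had the highest level of the set in day 1 CTRL libraries, at 319.9 ± 8.92 CPM per kb (SD, n = 4). Lox followed at 136 ± 44.5, Pcolce2 at 123 ± 13.6 and Adamts2 at 75.8 ± 18.1. Bmp1 (11.4 ± 2.65), Adamts14 (5.66 ± 3.11) and Loxl3 (3.95 ± 1.36) were the lowest. The levels of single genes below are in CPM, without length.

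**Figure D2:**
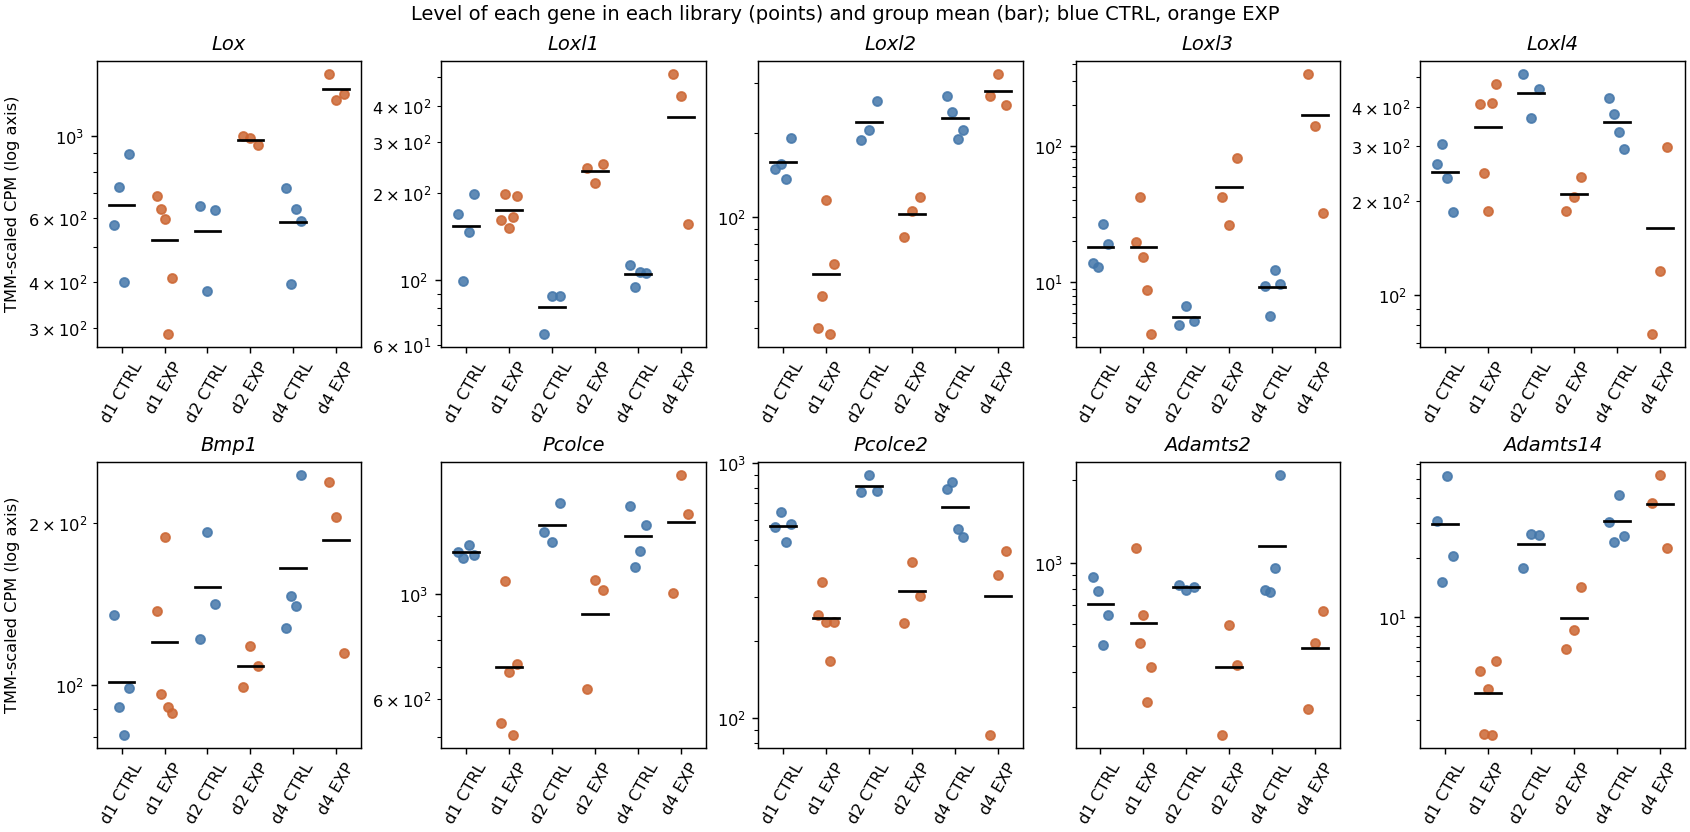
TMM-scaled CPM of each gene (log axis) in every library (points) by day and arm, with the group mean (bar). Lox reached 1260.2 to 1479.5 CPM in the day 4 EXP libraries, above every other library, and Adamts14 stayed between 2.52 and 5.98 CPM in day 1 EXP.

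Lox, the enzyme that gives the family its name, stood at 572, 726, 399 and 896 CPM in day 1 CTRL and at 685, 633, 593, 289 and 411 CPM in day 1 EXP. The arms overlapped on that day, and the log2 fold change was -0.31 ± 0.25 (SE; edgeR adjusted p = 0.373). On day 2 it was 646, 377 and 628 CPM in CTRL and 1000.0, 988 and 945 CPM in EXP, and on day 4 it was 723, 394, 634 and 588 CPM in CTRL and 1479.5, 1260.2 and 1308 CPM in EXP. From day 2 on, every EXP library was above every CTRL library of its day. The day 2 difference of 0.83 ± 0.31 did not pass (edgeR adjusted p = 0.0774). Of 8 alternatives with all libraries kept, 3 called it, and the largest adjusted p was 0.125. These 3 were without TMM (1.32, adjusted p = 0.0025), with totals that leave out the 10 genes with most counts (0.94, adjusted p = 0.0360) and with the day fitted alone (0.83, adjusted p = 0.0228). Without TMM the median of all genes was itself 0.49 on day 2. Of 6 fits with 1 library left out, 0 called it (adjusted p = 0.0986 to 0.271). The day 4 rise was 2.31-fold (1.21 ± 0.28, adjusted p = 0.00614). Day 4 EXP and then day 2 EXP had the highest levels, and the other 4 groups overlapped one another in order. In GENCODE M21 an exon of Lox shares bases with the antisense gene AC161119.1, and the strand of counting is not given in the sources used here, so reads of the pair cannot be told apart.

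Loxl1, an oxidase needed for elastic fibres, was higher in EXP than in CTRL of the same day from day 2 on. Its level was 169.8, 99.5, 147 and 198 CPM in day 1 CTRL and 161, 198, 152, 165 and 195 CPM in day 1 EXP, which overlap (0.18 ± 0.24, edgeR adjusted p = 0.608). On day 2 the CTRL libraries held 65.3, 88.4 and 88.5 CPM and the EXP libraries 244, 216 and 252 CPM. From day 1 to day 2 the log2 change was -0.93 ± 0.28 within CTRL and 0.45 ± 0.26 within EXP (edgeR adjusted p = 0.142 and 0.370). On day 4 the CTRL libraries held 113, 95.0, 107 and 106 CPM and the EXP libraries 514, 430.0 and 156 CPM. The arms stood apart on both days, though EXP 3 of day 4 was far nearer to the controls than the other 2. Loxl1 rose 2.94-fold on day 2 (1.55 ± 0.30, edgeR adjusted p = 0.00201) and 3.48-fold on day 4 (1.80 ± 0.27, edgeR adjusted p = 0.000321). These 2 calls held in every alternative fit that was run.

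Loxl2, an oxidase that acts on type IV as well as fibrillar collagen, went the other way at first. Day 1 CTRL libraries held 148, 154, 136 and 190.5 CPM and day 1 EXP libraries 39.9, 51.8, 114, 38.1 and 67.9 CPM. Day 2 CTRL libraries held 188, 205 and 260.4 CPM against 84.3, 105 and 117 CPM in EXP. All EXP values of both days lay below the CTRL values of the day. Loxl2 fell 2.52-fold on day 1 (-1.33 ± 0.24, edgeR adjusted p = 0.000425) and 2.13-fold on day 2 (-1.09 ± 0.30, edgeR adjusted p = 0.0191). The day 2 call was lost without CTRL 3 (-0.94, adjusted p = 0.0766), without EXP 1 (-0.98, adjusted p = 0.110) and without TMM (-0.63, adjusted p = 0.128). On day 4, CTRL libraries held 269, 236, 189 and 204 CPM and EXP libraries 271, 324 and 250.4 CPM. The arms then overlapped (0.33 ± 0.28, edgeR adjusted p = 0.413), with the mean of EXP the highest of the 6 groups. Exons of Loxl2 share bases with the antisense gene Gm27177 and with Mir6950.

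Loxl3, an oxidase with scavenger receptor domains like Loxl2 and Loxl4, was the lowest of the family in CTRL and had the widest range of the 10 genes, 80.1-fold from the lowest to the highest library. On day 1 it stood at 13.9, 13.1, 26.7 and 19.0 CPM in CTRL and at 19.9, 42.2, 15.5, 8.76 and 4.19 CPM in EXP, which overlap (-0.01 ± 0.57, edgeR adjusted p = 0.994). On day 2 it was 4.88, 6.69 and 5.26 CPM in CTRL and 42.0, 26.3 and 81.4 CPM in EXP. On day 4 it was 9.43, 5.71, 12.4 and 9.74 CPM in CTRL and 336, 139 and 32.0 CPM in EXP. Every EXP library of days 2 and 4 was above its controls, and the 3 libraries of day 4 EXP spanned a wide range. Loxl3 rose 8.90-fold on day 2 (3.15 ± 0.76, edgeR adjusted p = 0.0103) and 18.1-fold on day 4 (4.18 ± 0.70, edgeR adjusted p = 0.000834). From day 1 to day 2 its log2 change was -1.70 ± 0.70 within CTRL and 1.46 ± 0.60 within EXP (edgeR adjusted p = 0.276 and 0.195). Without EXP 1 the day 4 value was 3.23 (adjusted p = 0.00677). Exons of Loxl3 share bases with Htra2 on the other strand, whose level was 10.3 to 16.7 CPM in day 4 CTRL and 22.4 to 34.2 CPM in day 4 EXP, and reads of the pair cannot be told apart.

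The summed adipocyte markers in day 4 EXP 1, 2 and 3 were 43.7, 181 and 507 CPM, in the opposite order to Loxl3 in the same libraries. Among them Adipoq ranged from 0 to 52.9 CPM and Cfd from 1.10 to 220.3 CPM over these 3 libraries, and in day 4 CTRL Plin1 was at 0. The part of adipocyte RNA in the differences between arms was not tested. In bulk RNA, a different number of cells of a type and a different amount of RNA per cell cannot be told apart.

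Loxl4, the second most abundant oxidase per kilobase in CTRL on every day, took the opposite course to Loxl3. Day 1 CTRL libraries held 262, 305, 236 and 185 CPM and day 1 EXP libraries 410.0, 246, 186, 412 and 473 CPM (0.48 ± 0.31, edgeR adjusted p = 0.252). Day 2 CTRL libraries held 509, 369 and 455 CPM against 186, 206 and 238 CPM in EXP (-1.08 ± 0.38, edgeR adjusted p = 0.0600). Day 4 CTRL libraries held 427, 379, 333 and 294 CPM and EXP libraries 75.1, 119 and 297 CPM. The arms overlapped on day 1, stood apart on day 2 and overlapped by 1 library on day 4. Loxl4 fell 2.19-fold on day 4 (-1.13 ± 0.36, edgeR adjusted p = 0.0289). That call was lost without CTRL 1 (-1.03, adjusted p = 0.0582), EXP 1 (-0.79, adjusted p = 0.134) or EXP 2 (-0.96, adjusted p = 0.117), and the value was -1.88 (adjusted p = 0.000442) without EXP 3. Within the low side of the library division it was -1.30 (adjusted p = 0.0636), and with the division as a covariate -1.18 (adjusted p = 0.0656). The call was also lost without the filter on low counts (-1.10, adjusted p = 0.0830) and with the day fitted alone (-1.14, adjusted p = 0.118). The day 2 difference was called by DESeq2 (-1.10, adjusted p = 0.0268) and with the day fitted alone (-1.09, adjusted p = 0.00344). These were 2 of 8 alternatives with all libraries kept, and 0 of 6 fits with 1 library left out called it.

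**Figure D3:**
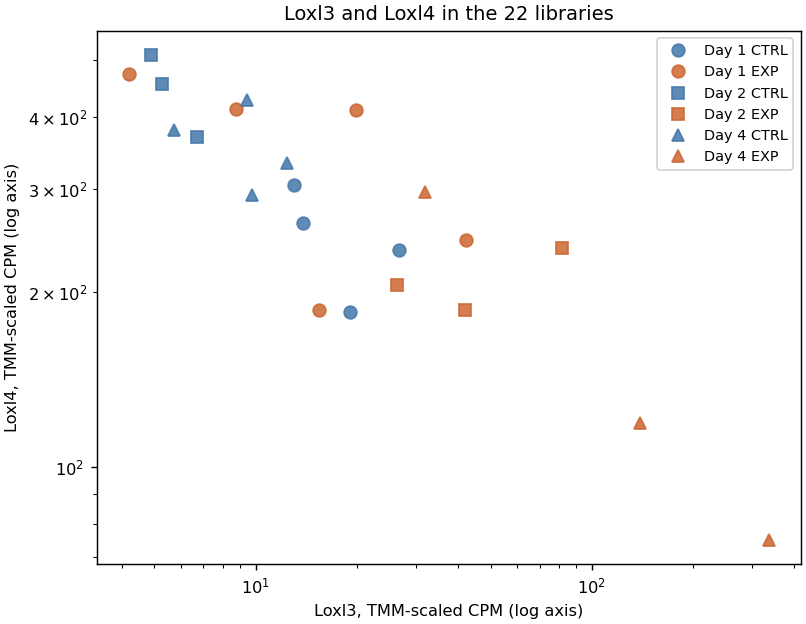
Loxl4 against Loxl3 in TMM-scaled CPM (both axes log) in the 22 libraries, with colour for the arm and shape for the day. The day 4 EXP libraries run from 32.0 CPM of Loxl3 with 297 of Loxl4 to 336 with 75.1, and the day 2 CTRL libraries sit at the upper left.

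Across the 22 libraries the log2 CPM of Loxl3 and Loxl4 had a Pearson correlation of -0.88, and of -0.71 after group means were removed. Loxl1 and Loxl4 gave -0.82 and -0.67, and Loxl1 and Loxl3 gave 0.86 and 0.59. These are descriptions over libraries that share groups, scaling and depth. The library with the most Loxl3 had the least Loxl4, and this order held in each of the 3 day 4 EXP libraries.

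The makeup of the family inside a library does not depend on scaling between libraries. By counts per kilobase, Loxl4 made up 36.9 ± 2.36% of the family in day 2 CTRL and 13.97 ± 1.35% in day 2 EXP (SD, n = 3 each). On day 4 its share was 30.2 ± 4.47% in CTRL (n = 4) and 8.10 ± 6.82% in EXP (n = 3), ranges that do not overlap. Lox held 39.6 ± 5.03% in day 2 CTRL and 57.5 ± 3.54% in EXP, and 42.9 ± 6.36% and 54.7 ± 5.93% on day 4. Loxl2 was a smaller part of the family in EXP on all 3 days, with 10.7 ± 0.743% against 4.55 ± 2.53% on day 1, 14.2 ± 2.72% against 5.30 ± 0.763% on day 2, and 14.8 ± 2.21% against 10.1 ± 1.73% on day 4. Loxl3 went from 0.716 ± 0.202% to 6.50 ± 5.26% on day 4. Of the 15 shares compared by a two-sided exact permutation test, 0 passed after Benjamini-Hochberg adjustment (smallest adjusted p = 0.107), and 4 had an unadjusted p under 0.05. The 3 against 3 libraries of day 2 cannot give a p below 0.10, and day 4 not below 0.0286. The summed level of the family was 274 ± 48.1 CPM per kb in CTRL and 259.6 ± 32.4 in EXP on day 1, 287 ± 46.8 and 356 ± 12.5 on day 2, and 283 ± 39.9 and 521 ± 81.1 on day 4.

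**Figure D4:**
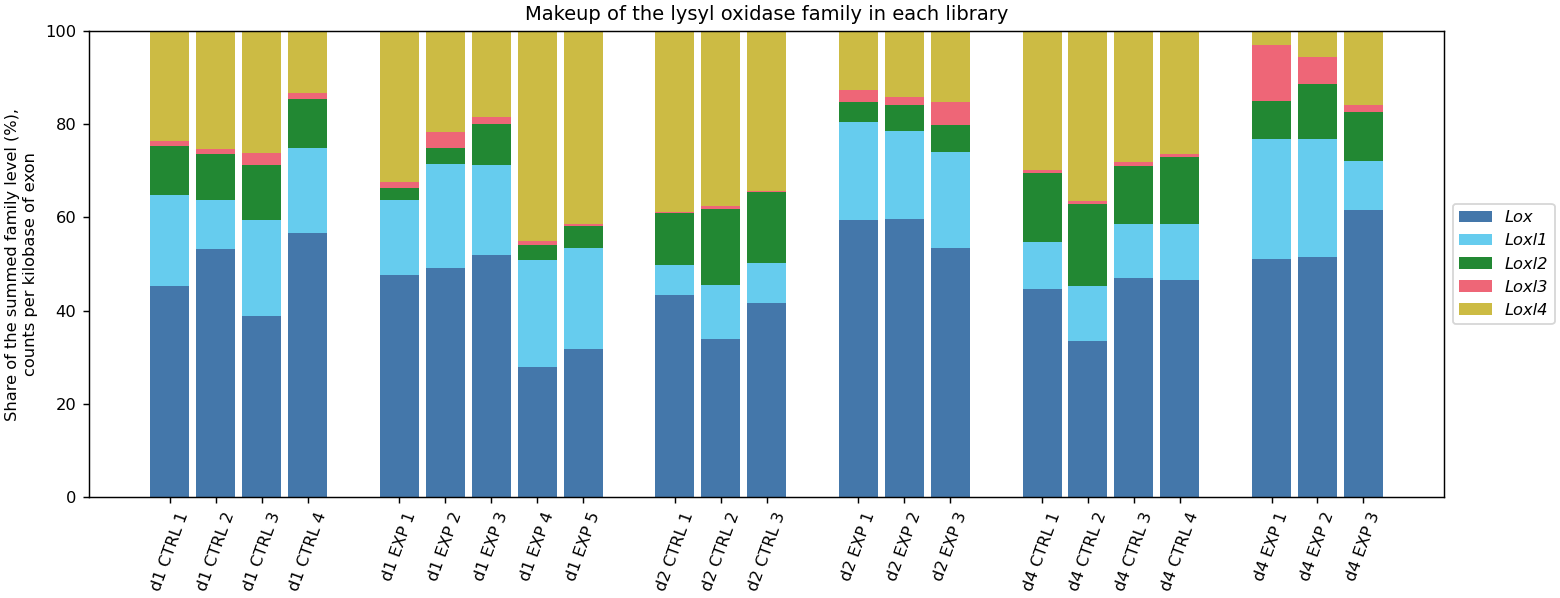
Stacked bars give the percent of each lysyl oxidase in the summed counts per kilobase of the family in each of the 22 libraries. Loxl4 narrows from a mean of 30.2% in day 4 CTRL to 8.10% in day 4 EXP, where Lox takes 54.7%.

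Bmp1, the C-propeptidase, did not pass the test on any day. It ranged over 80.6 to 245 CPM, the narrowest span of the 10 genes at 3.04-fold. The log2 differences were 0.25 ± 0.26, -0.49 ± 0.31 and 0.18 ± 0.29 on days 1, 2 and 4 (edgeR adjusted p = 0.503, 0.325 and 0.697), with 95% intervals of -0.29 to 0.79, -1.14 to 0.17 and -0.43 to 0.79. Day 2 CTRL libraries held 122, 192 and 141 CPM and EXP libraries 99.0, 118 and 108 CPM, which stand just apart. These intervals are limits of the estimates and not a limit of detection. A difference within them is not shown to be absent.

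Both enhancers of that cleavage were lower in EXP on day 1. Pcolce stood at 1225, 1191, 1270.0 and 1206 CPM in day 1 CTRL and at 535, 1066, 685, 504 and 710.1 CPM in EXP, a 1.75-fold fall (-0.81 ± 0.21, edgeR adjusted p = 0.00637). Its controls agreed closely and its EXP libraries spread below them. On day 2 it was 1352, 1289 and 1551 CPM in CTRL and 631, 1068 and 1020.0 CPM in EXP (-0.63 ± 0.26, edgeR adjusted p = 0.109), and on day 4 it was 1532, 1138, 1231 and 1395 CPM in CTRL and 1003, 1779.5 and 1473 CPM in EXP (0.10 ± 0.24, edgeR adjusted p = 0.798). Within the high side of the library division on day 1 the value was -0.63 (adjusted p = 0.183), with 3 CTRL and 2 EXP libraries. The low side held 1 CTRL library on that day and was not fitted alone. Exons of Pcolce share bases with Fbxo24 and the antisense gene Gm36266.

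Pcolce2 was the 1 member that fell on all 3 days. Its level was 560.2, 644, 490.2 and 577 CPM in day 1 CTRL and 253, 341, 239, 168 and 238 CPM in EXP. It was 771, 896 and 774 against 236, 411 and 301 CPM on day 2, and 788, 844, 553 and 511 against 86.1, 366 and 453 CPM on day 4. No EXP library reached a control of its day. The falls were 2.29-fold (-1.20 ± 0.31, edgeR adjusted p = 0.00655), 2.57-fold (-1.36 ± 0.38, adjusted p = 0.0224) and 2.23-fold (-1.16 ± 0.36, adjusted p = 0.0279). On day 1 the call was lost within the high side of the library division (-0.94, adjusted p = 0.190). On day 2 it was lost without CTRL 2 (-1.29, adjusted p = 0.0739), EXP 1 (-1.20, adjusted p = 0.113) or EXP 3 (-1.33, adjusted p = 0.0742), and without the filter on low counts (-1.36, adjusted p = 0.0617). On day 4 it was lost without CTRL 1 (-1.08, adjusted p = 0.0545), CTRL 2 (-1.03, adjusted p = 0.0620) or EXP 1 (-0.71, adjusted p = 0.0807). It was also lost without the filter (-1.13, adjusted p = 0.0758), with the day fitted alone (-1.17, adjusted p = 0.156) and with the division as a covariate (-1.14, adjusted p = 0.0751), but not within its low side (-1.44, adjusted p = 0.0419).

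Adamts2, the main N-propeptidase of skin, overlapped between arms on day 1. CTRL libraries held 890.4, 791, 505 and 646 CPM and EXP libraries 1133, 511, 646, 312 and 417 CPM (-0.23 ± 0.36, edgeR adjusted p = 0.672). Day 2 values were 828.7, 798 and 818 CPM in CTRL and 237, 597 and 424 CPM in EXP (-0.96 ± 0.44, edgeR adjusted p = 0.161). With the day fitted alone this was called (-0.96, adjusted p = 0.0407), in 1 of 8 alternatives with all libraries kept. With 1 library left out, 0 of 6 fits called it. Day 4 values were 795, 782, 958 and 2084 CPM in CTRL and 293, 513 and 668 CPM in EXP. The arms stood apart on days 2 and 4, and CTRL 4 of day 4 was far above all other libraries. The day 4 fall of 2.35-fold (-1.23 ± 0.43, edgeR adjusted p = 0.0426) was lost without CTRL 4 (-0.78, adjusted p = 0.173), CTRL 3 (-1.31, adjusted p = 0.0564), EXP 1 (-0.96, adjusted p = 0.188) or EXP 2 (-1.28, adjusted p = 0.0974). It was also lost without the filter (-1.20, adjusted p = 0.122) and with the day fitted alone (-1.26, adjusted p = 0.104). It was -0.68 within the low side of the library division (adjusted p = 0.347) and -0.44 with the division as a covariate (adjusted p = 0.435), and CTRL 3 and 4 are the libraries on its high side.

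Adamts14, a low-level relative of Adamts2, had the largest fall of the 10 genes. Day 1 CTRL libraries held 30.7, 15.0, 51.6 and 20.4 CPM and EXP libraries 5.31, 2.54, 4.29, 2.52 and 5.98 CPM, a 7.12-fold fall (-2.83 ± 0.36, edgeR adjusted p = 2.01e-05). Every EXP library was below every control, and the lowest count was 63. The call held in every alternative fit, with values from -3.07 to -2.42. On day 2 it was 17.8, 26.2 and 26.2 CPM in CTRL and 6.83, 8.58 and 14.1 CPM in EXP, which stand apart but did not pass (-1.25 ± 0.42, edgeR adjusted p = 0.0557). The call was made without EXP 3 (-1.60, adjusted p = 0.0451), with the day fitted alone (-1.25, adjusted p = 0.0135) and by DESeq2 (-1.26, adjusted p = 0.0247). In all, 3 of 8 alternatives with all libraries kept and 1 of 6 with 1 left out called it. On day 4 CTRL libraries held 30.4, 24.1, 41.7 and 25.8 CPM and EXP libraries 37.9, 52.4 and 22.3 CPM, which overlap (0.30 ± 0.39, edgeR adjusted p = 0.612).

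Ordered by group mean, neighbouring groups overlapped throughout for Loxl3, Loxl4, Bmp1 and Adamts2. For Loxl1, day 2 EXP stood apart from the next group, day 1 EXP, and day 2 CTRL lay below all others. For Loxl2 and Pcolce the 1 gap between neighbours fell below day 1 CTRL, with day 2 EXP and day 1 EXP under it. For Pcolce2 all 3 CTRL groups lay above all 3 EXP groups. For Adamts14 only day 2 EXP and, below it, day 1 EXP stood apart from their neighbours above.

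The ratio of paralogs inside a library put the N-propeptidase pair apart on day 1. The mean log2 ratio of Adamts14 to Adamts2 counts was -4.71 ± 1.02 in CTRL (SD, n = 4) and -7.13 ± 0.649 in EXP (n = 5), a difference of -2.42 (two-sided exact permutation p = 0.0079, adjusted p = 0.0476 over 6 comparisons). The arms did not overlap, and leaving out a library cannot make them do so. With any 1 of the 9 libraries left out the difference was -2.76 to -1.95. The unadjusted p was then the smallest the design gives (0.0179 or 0.0286) and the adjusted p 0.0571 to 0.0857, so that these fits cannot show whether the call depends on a library. On days 2 and 4 the differences were -0.23 and 1.43 (adjusted p = 0.700 and 0.171, exact permutation test). The ratio of Pcolce2 to Pcolce was lower in EXP by 0.37, 0.74 and 1.51 on days 1, 2 and 4, without overlap on the last 2 days, and did not pass (adjusted p = 0.111, 0.150 and 0.0857, exact permutation test).

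The effect of the expander depended on the day for 6 of the 10 genes in a joint test of the differences between days, where 8.82% of all genes passed. These were Adamts14 (edgeR adjusted p = 0.00307), Loxl3 (0.0122), Loxl1 (0.0126), Loxl2 (0.0156), Lox (0.0276) and Loxl4 (0.0401). Between day 1 and day 2 the effect differed for 1 of the 10 genes, Loxl1 (1.37 ± 0.38, edgeR adjusted p = 0.0498), where 2.97% of all genes passed. Between day 2 and day 4 it differed for 0 of the 10 by edgeR (3 at an unadjusted p under 0.05), where 0% of all genes passed. From day 1 to day 4 the effect differed for the same 6 genes, where 13.3% of all genes passed. It moved up by 3.13 ± 0.52 on the log2 scale for Adamts14, 4.19 ± 0.87 for Loxl3, 1.66 ± 0.37 for Loxl2, 1.62 ± 0.36 for Loxl1 and 1.52 ± 0.38 for Lox, and it moved by -1.61 ± 0.47 for Loxl4. All 5 lysyl oxidases are in this list, and Bmp1 (adjusted p = 0.398), Pcolce (0.134), Pcolce2 (0.956) and Adamts2 (0.410) are not. For Pcolce2 the difference between the day 4 and day 1 effects was 0.04, with a 95% interval of -0.96 to 1.03. The call for Lox was lost without day 1 CTRL 2 (0.0544), CTRL 4 (0.0727) or EXP 5 (0.0524), that for Loxl2 without day 4 EXP 2 (0.0567), and that for Loxl4 in 14 of the 22 fits that left out 1 library, at up to 0.0916, and without the filter on low counts (0.114). Pcolce was called without TMM (0.0347) and without day 1 EXP 2 (0.0361).

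Within EXP, 6 genes changed over the days, where 14.3% of all genes passed: Loxl2 and Adamts14 (both edgeR adjusted p = 8.24e-05), Lox (0.00466), Loxl3 (0.00483), Pcolce (0.0116) and Loxl1 (0.0194). Between day 1 and day 4 alone 7 members passed, where 19.0% of all genes did. The 6 were higher on day 4, by 2.17 ± 0.26 for Loxl2, 3.18 ± 0.38 for Adamts14, 1.37 ± 0.27 for Lox, 3.22 ± 0.62 for Loxl3, 1.02 ± 0.22 for Pcolce and 1.07 ± 0.25 for Loxl1, and Loxl4 was lower (-1.08 ± 0.35, edgeR adjusted p = 0.0338). Without 1 library the call was lost for Loxl1 (day 1 EXP 1, 0.0530; day 4 EXP 1, 0.149; day 4 EXP 2, 0.116), Loxl3 (day 4 EXP 1, 0.0516) and Pcolce (day 4 EXP 2, 0.107). Within CTRL, 0 genes of the set changed over the days by edgeR (2 at an unadjusted p under 0.05) and 0 by DESeq2, where 0.291% of all genes passed. Day of harvest and any processing shared by the libraries of a day cannot be told apart in these contrasts within an arm.

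The share of counts taken by collagen was itself lower in EXP without overlap on days 1 and 2, and the arms overlapped on day 4. Each gene was therefore also set against the summed counts of Col1a1, Col1a2 and Col3a1 in its own library. This ratio was higher in EXP for 7 of the 10 genes on day 1, 10 on day 2 and 7 on day 4, and the median log2 differences were 0.76, 0.92 and 1.27. Over all genes tested, the ratio was higher in EXP for 86.6%, 95.9% and 87.6%, with medians of 1.09, 1.80 and 1.10. Libraries stood apart, higher in EXP, for 3, 7 and 4 members, beside 44.0%, 77.1% and 23.3% of all genes, and lower in EXP for 1, 0 and 0 members, beside 1.01%, 0.826% and 1.58%. Nothing particular to the members is read from these counts. On day 1 the libraries stood apart for Loxl1 (1.32), Loxl4 (1.53) and Bmp1 (1.32), all higher, and for Adamts14 (-1.65), the 1 gene that was lower without overlap. On day 4 they stood apart for Lox (2.30), Loxl1 (2.70), Loxl3 (4.73) and Pcolce (1.14). Pcolce2, which fell in CPM on all days, differed from collagen by -0.12, 0.38 and -0.37, with overlap on each day. Of 30 comparisons, 0 passed the two-sided exact permutation test after adjustment (smallest adjusted p = 0.107), 9 had an unadjusted p under 0.05, and the design cannot go below an unadjusted 0.0079, 0.10 and 0.0286 on days 1, 2 and 4.

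**Figure D5:**
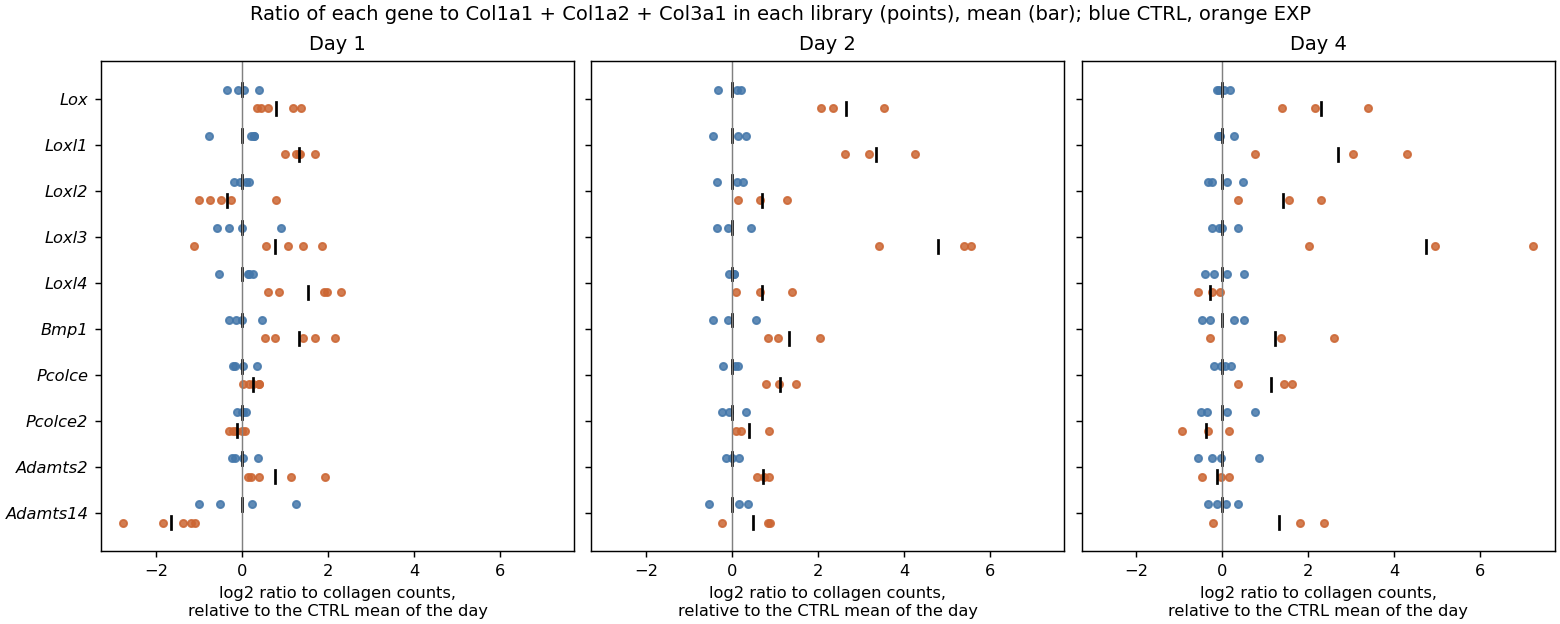
Log2 ratio of each gene to the summed collagen counts in every library (points), relative to the CTRL mean of the day, with the mean of each arm (bar). On day 2 the mean of EXP lies to the right of CTRL for all 10 genes, and on day 1 Adamts14 lies to the left at -1.65.

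Other genes of the pathway were read from lists by function. Of 10 substrates (fibrillar collagen chains and elastin), 7 fell and 0 rose on day 1, 5 fell and 0 rose on day 2, and 1 fell and 1 rose on day 4. Col5a1, a chain of the type V collagen that starts fibrils, went from 2293 ± 146 CPM to 798 ± 148 CPM on day 1 (-1.52 ± 0.21, edgeR adjusted p = 3.44e-05), and its partner Col5a2 from 2095 ± 199 to 1033 ± 66.1 CPM (-1.02 ± 0.14, edgeR adjusted p = 3.53e-05). On day 4 neither differed beyond error (-0.08 ± 0.24 and -0.20 ± 0.16, edgeR adjusted p = 0.832 and 0.381). Of 8 tested propeptidases and proprotein convertases, 2 rose and 2 fell on day 1, 3 rose and 1 fell on day 2, and 1 rose and 0 fell on day 4. Pcsk5, a convertase of secreted precursors, rose on all 3 days, by 1.16 ± 0.40, 3.12 ± 0.52 and 2.85 ± 0.46 (edgeR adjusted p = 0.0377, 0.000881 and 0.000604). Furin, the convertase that removes the prodomain of BMP1, rose on days 1 and 2 (1.19 ± 0.22 and 1.27 ± 0.26, edgeR adjusted p = 0.000468 and 0.00373).

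Of 8 matrix partners of lysyl oxidase or BMP1, 0 rose and 3 fell on day 1, and 2 rose and 2 fell on each of days 2 and 4. Efemp2, the fibulin that binds pro-LOX to elastin, rose 1.63 ± 0.33 on day 2 and 2.28 ± 0.30 on day 4 on the log2 scale (edgeR adjusted p = 0.00296 and 0.000143), from 123 ± 11.0 to 599 ± 332 CPM on day 4. Fn1, the fibronectin scaffold, fell on day 1 (-1.95 ± 0.33, edgeR adjusted p = 0.000263) and had day 2 and 4 values of -0.84 and 0.95 that did not pass. Of 8 genes for hydroxylation and glycosylation of collagen lysines, which prepare the sites of cross-links, 4 fell and 0 rose on day 1, and 1 rose and 1 fell on each of days 2 and 4. Plod2, the hydroxylase of telopeptide lysines, rose by 3.63 ± 0.72 on day 2 and 4.75 ± 0.59 on day 4 (edgeR adjusted p = 0.00278 and 0.000128) from a low level, 1.35 ± 0.335 CPM in day 4 CTRL and 36.3 ± 27.3 CPM in EXP. Plod1, which acts on the helix, fell on day 1 (-1.02 ± 0.19, edgeR adjusted p = 0.000542). Of 3 tested genes of copper supply, the importer Slc31a1 rose on day 1 (0.43 ± 0.16, edgeR adjusted p = 0.0450) and Atp7a, the pump that loads copper on secreted enzymes, did not pass (-0.64 ± 0.26, adjusted p = 0.0682); 0 passed on days 2 and 4.

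By the Pearson correlation of log2 CPM over the 22 libraries, among 9822 other genes whose mean was 5 CPM or more, the genes most like Lox were Adcyap1r1 (0.85), Fech (0.82) and Scn7a (0.82). Those like Bmp1 included Plagl1 (0.78) and Pkdcc (0.71). Those most like Pcolce were Ctsh (0.96), Smpdl3a (0.96) and Kdelr3 (0.93). Within the set, Loxl2 and Adamts14 gave 0.87 over all libraries and 0.20 after group means were removed, so that their likeness lies between groups rather than among libraries of a group. Loxl2 and Pcolce gave 0.84 over all libraries. These values share libraries and scaling and are descriptions.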

How the data were processed

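RNA from sorted fibroblasts was sequenced as ultra-low input libraries, per the labels' protocols. The authors deposited raw counts per gene by Ensembl ID, 52081 of them with a symbol in GENCODE M21 (GRCm38), which also gave exon lengths and overlaps. Trimmomatic and mm39 are named per the submitters' processing notes; aligner, counter, annotation and strand setting are not given in the sources used here.

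edgeR 4.0.16 in R 4.3.3 kept genes by filterByExpr (minimum count 10), scaled them by TMM and fitted all 6 groups without a block or covariate by robust quasi-likelihood, with 16 residual degrees of freedom. EXP was compared with CTRL within a day, differences between days were tested jointly, and p-values were adjusted over all genes by Benjamini-Hochberg. The standard error is the absolute log2 fold change over the root of F. A floor of 3 counts equals 0.0805 to 0.157 CPM, which covers counting error only. Ratios used 0.5 added to each count and exact permutation tests. The fit was tested on simulated counts. No 2 replicates were copies of 1 library: their counts gave a chi-square of 26.7 to 403 for each degree of freedom, and log2 CPM correlated at 0.915 to 0.972.

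The 10 genes and the lists were chosen with earlier results of these data known. From each list the 2 genes with the smallest adjusted p on any day are named, and for Lox, Bmp1 and Pcolce the 3 most alike genes, of which 1 is not reported here. Alternatives were DESeq2 1.42.0, its size factors, library totals, totals without the 10 genes with most counts, no filter, each day alone, a replicate block, the library division as a covariate, and each library left out; for ratios, 0.1 added, 2 collagens, or no length. Fits within 1 side of the division were chosen after seeing the data.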

Additional observations from a re-analysis of the deposited data

Results flagged for a closer look

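In 30 groups of 4 or 5 libraries, 2 held a library far from the others by Dixon's criterion, where chance would give about 1.5. Both were day 4 CTRL 4. Adamts2 was at 2084 CPM there against 782 to 958 CPM in the other 3 control libraries, and Bmp1 was at 245 CPM against 128 to 146 CPM. This library lies on the high side of the library division.

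The effect of the expander differed between days by edgeR's joint test of the 3 differences for 6 genes. The adjusted p was 0.00307 for Adamts14, which was lower in 5 of 5 EXP libraries on day 1 and overlapped on day 4. It was 0.0122 for Loxl3, 0.0126 for Loxl1 and 0.0276 for Lox, which overlapped on day 1 and were higher in 3 of 3 EXP libraries on day 4. It was 0.0156 for Loxl2, lower in 5 of 5 EXP libraries on day 1, and 0.0401 for Loxl4, which had means of 247 and 345 CPM in CTRL and EXP on day 1 and of 358 and 164 CPM on day 4.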

How the results depend on the processing

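No log2 fold change that passed the test reversed under any alternative. With all libraries kept, 105 of 122 refits of a passed value passed again and 17 did not, and 9 of 138 refits of a value that had not passed did so. With 1 library left out these were 87 and 15 of 102, and 1 of 118. The count of members called on day 1 (4) was 2 on the high side of the division. On day 2 (4) it was 8 with each day fitted alone. On day 4 (6) it was 3 without the filter, 3 with each day fitted alone and 3 with the division as a covariate. With a library left out it was 4 each time on day 1, 2 to 4 on day 2, 3 to 6 on day 4, 4 to 7 for day-dependent effects, 4 to 8 over days within EXP and 0 to 1 for the paralog ratios. Over all genes, calls on day 1 were 2428 on the high side in place of 5017, and calls on day 2 were 4632 without TMM in place of 2359. On day 4 they were 1128 with the day alone, 1697 with the covariate and 1381 on the low side in place of 3943. For day-dependent effects DESeq2 gave 2609 in place of 1549, and within CTRL 525 in place of 51 (163 without TMM). Totals without the 10 genes with most counts gave a median log2 difference of all genes of 0.12 on day 2 and 0.11 on day 4.

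After group means were removed, same-numbered CTRL and EXP libraries correlated at -0.066 to 0.164 on day 1, -0.062 to -0.003 on day 2 and 0.080 to 0.146 on day 4. Differently numbered libraries were not compared, so that these values cannot show whether the libraries are paired. The labels tie no number to an animal. With the replicate block, 1 member had a day-dependent effect in place of 6, and over all genes 401 did. The block removes day 1 EXP 5 and day 4 CTRL 4 from the comparison, which have no partner. By edgeR adjusted p, the day-dependent effect was called with the block for Adamts14 and not for Lox (0.152), Loxl1 (0.0932), Loxl2 (0.0620), Loxl3 (0.123) or Loxl4 (0.137). The day 4 value of Adamts2 with the block was -0.85 (adjusted p = 0.0986) and the day 2 value of Adamts14 was -1.29 (adjusted p = 0.0261). The cause of these changes was not tested. Over days within an arm, the blocked contrasts compare fitted levels at replicate 1 of each day in place of group means. They therefore do not test the same change as the fit without a block. They gave 2 members within EXP in place of 6, and over all genes 1389 within EXP and 0 within CTRL. Lox (0.166), Loxl1 (0.135), Loxl3 (0.0748) and Pcolce (0.186) were not called within EXP, by edgeR adjusted p.

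With 3 to 5 libraries a group, a difference that did not pass is not shown to be absent.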
